A study of Mus musculus with 12 samples.

Results

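The 8 genes described here encode members of the NFAT family or proteins of calcium signalling in T cells. They are Nfatc1, Nfatc2, Nfatc3 and Nfat5, which encode transcription factors of the NFAT family, Ppp3ca, a catalytic subunit of calcineurin, Rcan1, a calcineurin regulator, Orai1, the pore of the store-operated calcium channel, and Stim1, the calcium sensor that opens it. They were chosen by gene name, and each name matched 1 of the 36222 genes measured. RNA was sequenced from regulatory T cells (Treg), which restrain immune responses and are labelled as from spleen, in 12 libraries of 4 groups with 3 biological replicates each. Wild-type (WT) Treg came from Foxp3-YFP-Cre mice and Ikaros-deficient (cKO) Treg from Ikzf1-fl-Foxp3-YFP-Cre mice, so that both genotypes carried the Cre under the control of Foxp3, and only the cKO mice carried floxed Ikzf1, which encodes Ikaros, a zinc finger factor that binds DNA. In both genotypes YFP+ cells were sorted from CD4+ T cells of individual age-matched mice, and RNA was taken either directly (ex vivo) or after 4 hours with antibodies to CD3 and CD28 bound to the plate at 1 ug/ml each (stimulated). No library of Treg kept in culture without antibody was part of the comparison, so the time in culture and the antibodies cannot be told apart.

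When the T cell receptor is engaged, phospholipase C releases inositol trisphosphate, its receptors empty the calcium store of the endoplasmic reticulum, STIM1 senses the loss, and ORAI1 lets calcium in from outside. Calcium and calmodulin then switch on calcineurin, which removes phosphates from NFATc1, NFATc2 and NFATc3 so that they enter the nucleus, while kinases such as GSK3, CK1 and DYRK send them out again. NFAT5 is the relative that responds to osmotic stress and lacks the calcineurin docking of the other family members. In Treg, NFAT proteins bind DNA together with Foxp3. The libraries measured RNA, so neither the phosphorylation nor the place of these proteins in the cell was observed.

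The values are TPM, a measure of transcript abundance that takes gene length and the library total into account, divided by a scaling factor per library (scaled TPM). This was done because 1 gene, Gm10800, held between 17.7% and 55.9% of a library's TPM. Assigned reads ranged from 8208659 to 20247649 per library. Of all genes, 13318 reached a mean of 5 TPM in at least 1 group and were tested with limma, with a Benjamini-Hochberg adjusted p under 0.05 called a change, and all 8 genes were among them. Ikzf1 lay at 103.6 to 113.5 scaled TPM in the WT libraries ex vivo against 33.0 to 42.1 in cKO, and after stimulation at 66.7 to 71.1 against 23.3 to 30.1. Each group carried the Treg transcripts Foxp3, Cd4 and Il2ra, and the 8 Treg identity genes summed to between 1309 and 2365 scaled TPM in every library. The libraries measured mixtures of cells, in which fewer cells of a kind and less RNA per cell cannot be told apart.

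Promoters are shown first for Orai1 and Nfat5, which were higher in cKO Treg ex vivo, and for Nfatc2, which was lower after stimulation in both genotypes. The sequences are from RefSeq on the GRCm38.p6 build, and each window of 300 bases runs from 250 bases before to 50 bases after a start site on the gene's strand. Capitals mark every match, on either strand, to the NFAT core GGAAA or the Ikaros core GGGAA, which overlap each other in GGGAAA. The Orai1 window lies at chr5:123014824-123015123 on the plus strand, the Nfat5 window at chr8:107293220-107293519 on the plus strand, and those of Nfatc2 at chr2:168601608-168601907 and chr2:168590316-168590615 on the minus strand.
Orai1: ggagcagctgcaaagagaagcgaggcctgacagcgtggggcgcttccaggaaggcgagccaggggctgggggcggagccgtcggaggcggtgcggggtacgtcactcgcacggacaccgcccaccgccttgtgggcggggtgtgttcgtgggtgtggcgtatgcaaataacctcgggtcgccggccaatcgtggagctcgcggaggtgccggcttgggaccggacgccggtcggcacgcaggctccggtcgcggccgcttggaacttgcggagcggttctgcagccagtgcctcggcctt
Nfat5: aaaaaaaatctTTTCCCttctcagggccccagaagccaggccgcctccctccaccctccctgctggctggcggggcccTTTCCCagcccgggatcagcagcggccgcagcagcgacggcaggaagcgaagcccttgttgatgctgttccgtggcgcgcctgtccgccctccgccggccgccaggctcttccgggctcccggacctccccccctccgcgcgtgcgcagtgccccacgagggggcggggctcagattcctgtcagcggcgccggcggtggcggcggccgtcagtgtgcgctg
Nfatc2, upstream start: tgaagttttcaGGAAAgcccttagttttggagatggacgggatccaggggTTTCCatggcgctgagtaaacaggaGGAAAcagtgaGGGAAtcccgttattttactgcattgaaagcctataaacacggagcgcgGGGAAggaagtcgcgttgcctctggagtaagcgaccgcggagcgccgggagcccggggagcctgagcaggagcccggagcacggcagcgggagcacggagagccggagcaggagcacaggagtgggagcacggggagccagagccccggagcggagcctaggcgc
Nfatc2, downstream start: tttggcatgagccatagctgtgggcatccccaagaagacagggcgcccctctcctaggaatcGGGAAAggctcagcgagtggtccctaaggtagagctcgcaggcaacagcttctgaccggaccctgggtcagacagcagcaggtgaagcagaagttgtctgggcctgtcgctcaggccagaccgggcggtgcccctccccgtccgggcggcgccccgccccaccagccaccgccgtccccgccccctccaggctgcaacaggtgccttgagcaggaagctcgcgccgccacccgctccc
The Nfat5 window held 2 matches to each core, both in the form GGGAAA, and the Orai1 window held 0 of either. The upstream Nfatc2 window held 3 matches to GGAAA and 2 to GGGAA, and the downstream window 1 of each in a single GGGAAA. Of the other windows, that of Stim1 held 0 of either, those of Nfatc3 held 1 of each and 0 of each, and those of Rcan1 held 0 and 3 of GGAAA and 1 and 1 of GGGAA. These short motifs are common, since 61.3% of 32851 promoter windows held GGAAA, 62.7% held GGGAA and 25.2% held GGGAAA. A match is a description of the letters, and binding was not measured in these libraries.

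On the mm9 build used for the files, Nfatc2 spans chr2:168301910-168427157 on the minus strand, Nfatc3 chr8:108582740-108654437 and Nfat5 chr8:109817370-109903417 on the plus strand of the same chromosome. Nfatc1 spans chr18:80802944-80909810 and Rcan1 chr16:92392198-92466391, both on the minus strand. Orai1 spans chr5:123465083-123480459, Stim1 chr7:109416338-109585362 and Ppp3ca chr3:136333088-136600691, all on the plus strand. The exons of the 8 genes overlapped no exon of another gene on the same strand. Nfatc3 overlaps Esrp2 and Orai1 overlaps Kdm2b on opposite strands, and reads were counted by strand.

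In WT Treg ex vivo, Nfatc3 and Nfatc1 were the most abundant of the 8 transcripts. Nfatc3 averaged 85.8 ± 7.24 scaled TPM (SD, n = 3) and Nfatc1 70.8 ± 6.43, and the libraries of this pair did not overlap. Orai1 followed at 37.6 ± 4.49, Stim1 at 34.2 ± 2.83 and Nfatc2 at 31.1 ± 2.45, each overlapping the next in order, and then Nfat5 at 23.5 ± 4.08, Ppp3ca at 16.9 ± 1.59 and Rcan1 at 6.08 ± 0.812. In cKO Treg ex vivo the order began with Nfatc1 at 108.5 ± 5.05, followed by Nfatc3 at 86.3 ± 7.19 and Orai1 at 67.2 ± 10.2, and Nfat5 stood above Stim1 and Nfatc2. Among these neighbours Nfatc1 was apart from Nfatc3, while the Nfatc3 and Orai1 libraries overlapped.

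After stimulation Nfatc3 again led in WT at 89.8 ± 7.77 scaled TPM (SD, n = 3), above Nfatc1 at 76.3 ± 5.09 and Orai1 at 59.6 ± 4.40, with no overlap between neighbours. In stimulated cKO Treg the 3 leading genes, Nfatc1 at 73.7 ± 13.0, Nfatc3 at 61.1 ± 9.30 and Orai1 at 59.6 ± 8.18, overlapped each other in that order. Nfatc2 and Ppp3ca, at 15.8 ± 0.385 and 12.2 ± 0.277 in WT and at 16.6 ± 0.467 and 9.78 ± 1.16 in cKO, came above only Rcan1. By percentile of group means among the 13318 genes tested, Nfatc1 and Nfatc3 lay between 93.3 and 96.6 in every group and Ppp3ca between 47.8 and 66.7.

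**Figure D1:**
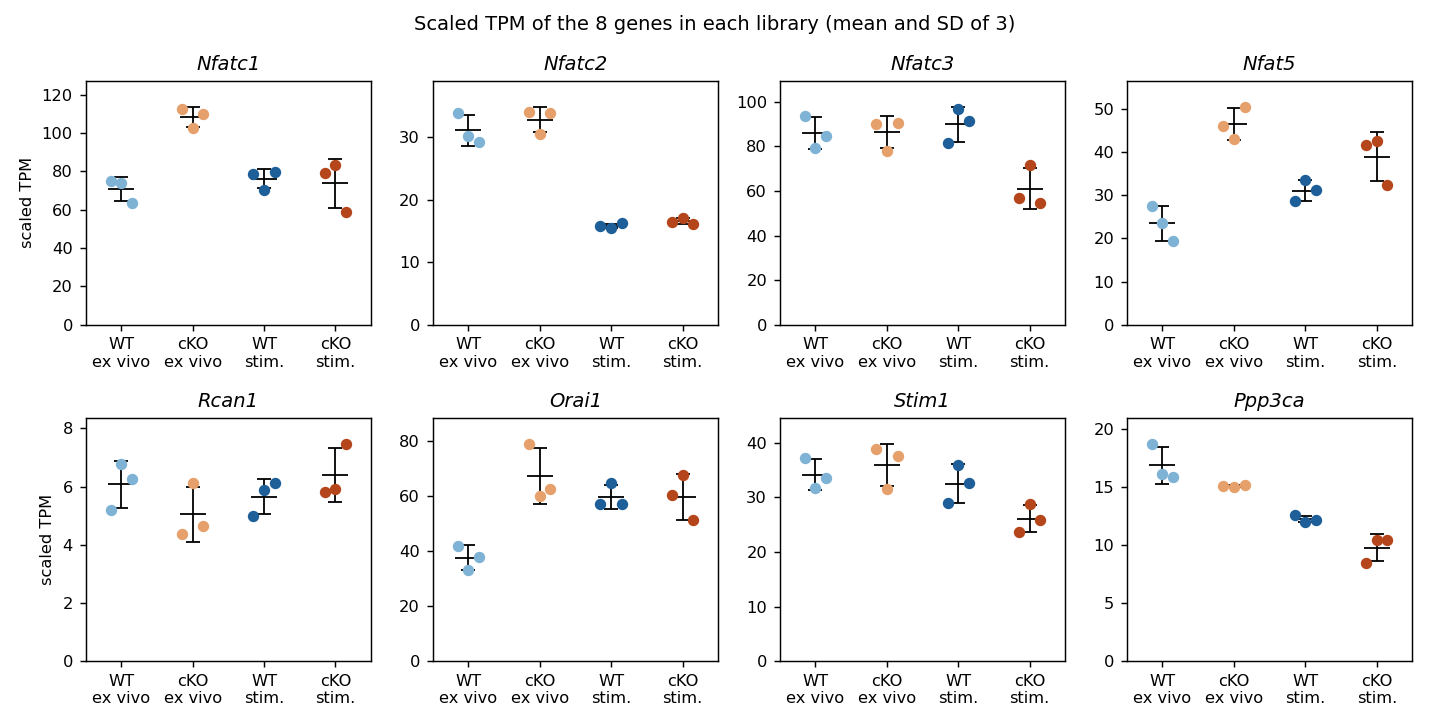
Scaled TPM (y axes, starting at 0) of the 8 genes in each library of the 4 groups (x axes). Points are libraries, horizontal bars are means of 3 and error bars are SD. Nfatc1, Nfat5 and Orai1 lie higher in cKO than in WT ex vivo, and Nfatc2 lies between 15.4 and 17.1 in the stimulated libraries against 29.2 to 34.0 ex vivo.

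To ask whether these transcripts differed between the genotypes before stimulation, cKO and WT Treg were compared ex vivo. Nfat5, Orai1 and Nfatc1 were higher in cKO Treg, by 1.98-, 1.79- and 1.53-fold in mean scaled TPM, and none of the 8 genes was called lower. These 3 of 8 genes compare with 5.29% of all genes called in this comparison and 3.62% called higher. The median log2 change of the 8 genes was 0.07 against -0.01 over all genes tested.

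Nfat5 measured 27.5, 23.6 and 19.3 scaled TPM in the WT libraries ex vivo and 46.1, 43.1 and 50.4 in cKO. Every cKO library lay above every WT library, as it did in 21.5% of all genes in one direction or the other. The log2 change was 0.97 (limma, SE 0.14, adjusted p = 0.00327, n = 3 per group).

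Orai1 measured 42.0, 33.0 and 37.8 scaled TPM in WT ex vivo and 78.8, 60.0 and 62.6 in cKO. The lowest cKO library was again above the highest WT library. The log2 change was 0.82 (limma, SE 0.14, adjusted p = 0.00637), and the calls of Orai1 and Nfat5 held when any 1 of the 12 libraries was left out.

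Nfatc1, which T cells transcribe from alternative promoters to give short and long forms, measured 75.0, 74.0 and 63.4 scaled TPM in WT ex vivo and 112.7, 102.9 and 109.8 in cKO. These groups did not overlap either, and the log2 change was 0.61 (limma, SE 0.13, adjusted p = 0.0194). The call was lost without WT replicate 3 (adjusted p = 0.0785), cKO replicate 1 (0.0723) or cKO replicate 3 (0.0729), with a log2 change of at least 0.53 in each. It was kept in the 9 other fits that left out 1 library, and was not made with unscaled TPM, where the log2 change was 0.85 (adjusted p = 0.114).

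The 3 calls also depended on which genes were admitted. With all genes above 1 TPM in the fit, of which there were 33873, the log2 changes were 0.96 for Nfat5, 0.80 for Orai1 and 0.60 for Nfatc1, while the adjusted p was 0.257, 0.462 and 0.662. The sizes were thus nearly the same and the calls were not made.

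The other members showed no called change ex vivo. Nfatc2 measured 33.9, 30.2 and 29.2 scaled TPM in WT and 34.0, 30.5 and 33.9 in cKO, a log2 change of 0.08 (limma, SE 0.08, adjusted p = 0.690). Nfatc3 measured 93.5, 79.2 and 84.8 in WT and 90.2, 78.0 and 90.7 in cKO, a log2 change of 0.01 (limma, SE 0.12, adjusted p = 0.987). Stim1, the partner of Orai1, measured 37.3, 31.8 and 33.5 in WT and 38.8, 31.6 and 37.6 in cKO, a log2 change of 0.07 (limma, SE 0.11, adjusted p = 0.831). For these genes the libraries of both genotypes covered nearly the same range, unlike the libraries of Orai1.

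Ppp3ca measured 18.7, 16.1 and 15.8 scaled TPM in WT ex vivo and 15.05, 14.96 and 15.19 in cKO. The groups did not overlap, as in 21.5% of all genes, but the log2 change of -0.15 (limma, SE 0.09, adjusted p = 0.472) did not pass the test. Rcan1 measured 5.19, 6.77 and 6.28 in WT and 4.38, 6.12 and 4.64 in cKO, with overlapping groups and a log2 change of -0.23 (limma, SE 0.15, adjusted p = 0.494).

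Within the sum of the 4 NFAT genes, Nfatc3 made up 40.7% ± 2.42 (SD, n = 3) in WT ex vivo and 31.5% ± 0.694 in cKO. Nfatc1 made up 33.5% ± 1.91 in WT and 39.6% ± 0.952 in cKO, and Nfat5 11.1% ± 1.11 and 17.0% ± 0.700. Nfatc2 took 14.7% ± 0.119 and 11.97% ± 0.0539. The ranges of WT and cKO libraries were apart for each of these 4 shares, which sum to a whole in each library and so are not independent of each other, and no test was run on them.

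**Figure D2:**
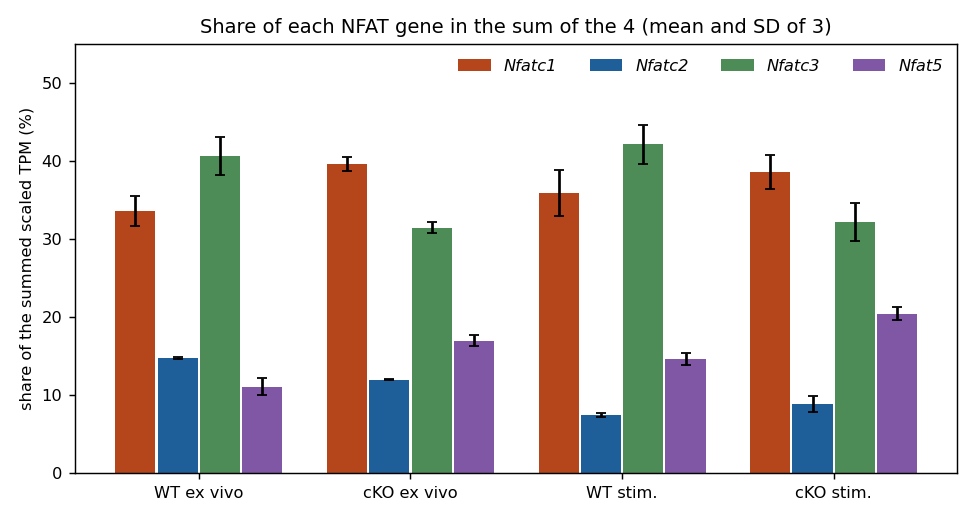
Share of each NFAT gene (colours) in the summed scaled TPM of Nfatc1, Nfatc2, Nfatc3 and Nfat5 (y axis, percent), by group (x axis). Bars are means of 3 libraries and error bars are SD. Nfatc3 holds the largest share in WT Treg, at 40.7% ex vivo and 42.1% stimulated, and Nfatc1 in cKO Treg, at 39.6% and 38.6%.

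Markers of Treg subsets moved with genotype ex vivo. Of 6 markers of naive or central Treg, 3 were called lower in cKO, against 1.67% of all genes (among them Lef1 and Klf2, with log2 changes of -0.69 and -1.44), and their summed level was 1732 to 2238 scaled TPM in cKO libraries against 2905 to 3792 in WT. Of 6 markers of effector Treg, 3 were called higher, against 3.62% of all genes (Klrg1 by 0.86, Prdm1 by 0.76 and Cd44 by 0.62 on the log2 scale), with sums of 240.7 to 277.8 against 194.1 to 196.5. With unscaled TPM 1 naive or central and 2 effector markers were called, and with genes above 1 TPM admitted 0 of either. The 6 B cell markers summed to 23.9 to 28.7 scaled TPM in cKO and 14.5 to 22.1 in WT, with no marker at 0 reads throughout a group. The sums of myeloid, CD8 T cell, NK cell and erythroid markers overlapped between the genotypes and stayed at or below 19.9 scaled TPM in each library, and 1 erythroid marker had 0 reads in the cKO libraries. The part of these markers in the changes of Nfat5, Orai1 and Nfatc1 was not tested.

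The same genotypes were then compared after 4 hours of stimulation. The called difference was now in Nfatc3, which was lower in cKO Treg, and Nfat5, Orai1 and Nfatc1 were not called. This 1 of 8 genes compares with 6.93% of all genes called, 3.3% higher and 3.63% lower. The median log2 change of the 8 genes was -0.0350 against -0.0348 over all genes.

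Nfatc3 measured 81.4, 96.7 and 91.3 scaled TPM in stimulated WT Treg and 56.9, 71.7 and 54.5 in stimulated cKO Treg. The groups did not overlap, as in 30.8% of all genes. The mean in cKO was 0.680 of that in WT, a log2 change of -0.56 (limma, SE 0.12, adjusted p = 0.0203, n = 3 per group). The call was lost without any 1 of 4 libraries, namely WT replicate 2 (adjusted p = 0.0881), WT replicate 3 (0.0747), cKO replicate 1 (0.0811) and cKO replicate 3 (0.0852), and also with the replicate number as a block (0.0512). It was not made either with unscaled TPM (-0.84, adjusted p = 0.0647) or with all genes above 1 TPM admitted (-0.86, adjusted p = 0.259), where the log2 change was larger. The direction was kept in all 19 alternatives.

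Orai1 measured 57.2, 64.7 and 57.02 scaled TPM in stimulated WT and 60.3, 67.4 and 51.1 in stimulated cKO. The WT libraries lay within the range of the cKO libraries, and the log2 change was -0.01 (limma, SE 0.14, adjusted p = 0.979). Nfatc1 measured 78.4, 70.5 and 79.9 in WT and 79.1, 83.2 and 58.9 in cKO, where replicate 3 was the lowest of the 6 libraries. Its log2 change was -0.06 (limma, SE 0.13, adjusted p = 0.794).

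Nfat5 measured 28.6, 33.5 and 31.1 scaled TPM in stimulated WT and 41.6, 42.6 and 32.3 in stimulated cKO. The cKO replicate 3 lay inside the WT range and the other two cKO libraries above it. The log2 change was 0.31 (limma, SE 0.14, adjusted p = 0.210). It was 0.023 with unscaled TPM and 0.0074 with genes above 1 TPM admitted.

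Stim1 and Ppp3ca were lower in each stimulated cKO library than in each stimulated WT library without passing the test. Groups were apart in this way, in one direction or the other, in 30.8% of all genes. Stim1 measured 29.0, 36.0 and 32.6 scaled TPM in WT and 23.7, 28.7 and 25.9 in cKO, a log2 change of -0.30 (limma, SE 0.11, adjusted p = 0.134). Ppp3ca measured 12.54, 12.02 and 12.12 in WT and 8.44, 10.5 and 10.4 in cKO, a log2 change of -0.30 (limma, SE 0.09, adjusted p = 0.0797). With unscaled TPM the log2 changes of Stim1 and Ppp3ca were -0.59 and -0.57, and neither was called (limma adjusted p = 0.111 and 0.0999). Nfatc2 measured 15.8, 15.4 and 16.2 in WT and 16.5, 17.1 and 16.1 in cKO, a log2 change of 0.06 (limma, SE 0.08, adjusted p = 0.635). Rcan1 measured 4.98, 5.87 and 6.12 in WT and 5.82, 5.93 and 7.47 in cKO, a log2 change of 0.15 (limma, SE 0.15, adjusted p = 0.569).

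Subset markers again moved with genotype in these libraries. The naive or central markers summed to 586.6 to 757.0 scaled TPM in stimulated cKO and 1152 to 1525 in stimulated WT, with 4 of 6 called lower, among them Tcf7, Lef1 and S1pr1, against 3.63% of all genes. The effector markers summed to 182.6 to 230.4 against 118.6 to 142.7, with 2 of 6, Icos and Prdm1, called higher, against 3.3% of all genes. The Icos and Prdm1 calls were kept in 16 and 10 of 19 alternatives. With unscaled TPM 4 naive or central and 0 effector markers were called, and with genes above 1 TPM admitted 3 and 0. B cell markers summed to 21.2 to 32.9 against 16.4 to 17.6, with Cd79b called higher at a log2 change of 0.96, a call kept in 12 of 19 alternatives. NK cell markers summed to 11.2 to 15.03 against 8.33 to 9.89, while the sums of myeloid, CD8 T cell and erythroid markers overlapped. All 4 NK cell markers were below the filter of 5 TPM. The median level of 1555 olfactory and vomeronasal receptor genes, which T cells do not use, also differed, averaging 1.14 scaled TPM in stimulated cKO and 0.862 in stimulated WT. Of the 8 Treg identity genes 3 were called between the stimulated genotypes, against 6.93% of all genes. Foxp3 (0.96) and Il2ra (0.80) were higher in cKO and Cd3d (-0.61) was lower, calls kept in 16, 16 and 13 of 19 alternatives. The part of these markers in the Nfatc3 difference was not tested.

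Stimulation was compared with the ex vivo state in each genotype. Nfatc2 fell to about 0.5 of its level in both genotypes, and Ppp3ca fell in both. Orai1 and Nfat5 rose in WT, whereas in cKO Nfatc1, Nfatc3 and Stim1 fell. In WT, 4 of the 8 genes were called, 2 higher and 2 lower, against 32% of all genes, 12.7% higher and 19.3% lower. In cKO, 5 were called, all lower, against 43.8% of all genes, 17.3% higher and 26.5% lower, and the median log2 change of the 8 was -0.47 against -0.01 over all genes. Beside the treatment, the stimulated libraries had fewer assigned reads, 8208659 to 13440658 against 11822714 to 20247649, and Gm10800 held 32.6% to 55.9% of their TPM against 17.7% to 39.8%. Their 6 myeloid markers summed to 20.8 to 29.1 scaled TPM against 13.8 to 19.9 ex vivo. The naive or central markers summed to 1152 to 1525 in WT and 586.6 to 757.0 in cKO after stimulation, against 2905 to 3792 and 1732 to 2238 ex vivo. The sum of the Treg identity markers went from 2046 to 2313 ex vivo to a range of 1328 to 1449 in WT, and from 2110 to 2365 to a range of 1309 to 1796 in cKO. Of these 8 markers 5 were called lower in each genotype. Tnfrsf18 was called higher in both (0.79 in WT and 0.58 in cKO on the log2 scale) and Il2ra in cKO (0.65). The effector markers went from 194.1 to 196.5 ex vivo to a range of 118.6 to 142.7 in WT, and from 240.7 to 277.8 to a range of 182.6 to 230.4 in cKO. NK cell markers went from 6.46 to 9.22 ex vivo to a range of 11.2 to 15.03 in cKO and overlapped in WT. All 4 NK cell markers, and the myeloid markers other than Cd68, were below the filter of 5 TPM. The median level of the olfactory and vomeronasal receptor genes also rose on average with stimulation. It went from 0.705 to 0.862 scaled TPM in WT and from 0.734 to 1.14 in cKO. Of the B cell markers, Cd79b was called lower with stimulation in WT (-0.68, limma adjusted p = 0.0406), and Cd22, which entered the test through cKO ex vivo alone, averaged 6.93 ± 0.801 scaled TPM (SD, n = 3) there and 4.72 ± 0.92 in stimulated cKO. The part of these in the changes was not tested.

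Nfatc2 went from 29.2 to 33.9 scaled TPM in WT ex vivo to 15.4 to 16.2 after stimulation. The mean ratio was 0.508, a log2 change of -0.93 (limma, SE 0.08, adjusted p = 1.21e-05). In cKO it went from 30.5 to 34.0 to a range of 16.1 to 17.1, with a ratio of 0.505 and a log2 change of -0.94 (limma, SE 0.08, adjusted p = 7.5e-06). In both genotypes the groups were apart, as in 47.5% of all genes in WT and 53.5% in cKO, and both calls held in all 19 alternatives, with a log2 change in cKO of -1.46 when genes above 1 TPM were admitted. The log2 changes of the genotypes differed by -0.01 (limma, SE 0.11, adjusted p = 0.974).

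Ppp3ca fell by 0.43 on the log2 scale in WT (limma, SE 0.09, adjusted p = 0.00491), where the 3 stimulated libraries at 12.02 to 12.54 scaled TPM lay below the ex vivo libraries at 15.8 to 18.7. The call in WT was not made with unscaled TPM, where the log2 change was -0.24 (adjusted p = 0.373), nor with genes above 1 TPM admitted, where it was -0.67 (adjusted p = 0.0596). In cKO it fell by 0.58 (limma, SE 0.09, adjusted p = 0.000625), from 14.96 to 15.19 ex vivo to a range of 8.44 to 10.5 after stimulation. This call held in all 19 alternatives, with a log2 change of -0.89 with unscaled TPM and -1.08 with genes above 1 TPM admitted.

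Orai1 rose in WT by 0.66 on the log2 scale (limma, SE 0.14, adjusted p = 0.00382), a ratio of 1.59, and every stimulated WT library exceeded every WT library ex vivo. The call held without any 1 library, and was not made with genes above 1 TPM admitted, where the log2 change was 0.40 (adjusted p = 0.469). In cKO the Orai1 libraries overlapped, with 60.0 to 78.8 scaled TPM ex vivo and 51.1 to 67.4 after stimulation, and the log2 change was -0.17 (limma, SE 0.14, adjusted p = 0.327). It was -0.49 with unscaled TPM and -0.71 with genes above 1 TPM admitted, and was called in neither (limma adjusted p = 0.116 and 0.0954). The difference between the genotypes in the stimulation effect on Orai1 was -0.82 (limma, SE 0.19, adjusted p = 0.0696). With limma voom on the reads recovered from the TPM it was called (adjusted p = 0.00776).

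Nfat5 in WT was higher after stimulation by 0.40 on the log2 scale (limma, SE 0.14, adjusted p = 0.0472), and the stimulated libraries at 28.6 to 33.5 scaled TPM all exceeded the ex vivo libraries at 19.3 to 27.5. This call was close to the threshold and was kept in 3 of the 12 fits without 1 library. The adjusted p without WT ex vivo replicates 2 and 3 was 0.0791 and 0.151, without cKO ex vivo replicates 1, 2 and 3 it was 0.0626, 0.0539 and 0.0577, without WT stimulated replicates 1, 2 and 3 it was 0.0617, 0.139 and 0.105, and without cKO stimulated replicate 1 it was 0.0565. The call was also not made with unscaled TPM (0.59, adjusted p = 0.111), with the replicate block (adjusted p = 0.0599) or with genes above 1 TPM admitted (0.15, adjusted p = 0.811). In cKO all stimulated Nfat5 libraries, at 32.3 to 42.6, lay below the ex vivo libraries at 43.1 to 50.4, with a log2 change of -0.26 (limma, SE 0.14, adjusted p = 0.146). With genes above 1 TPM admitted this fall was called (-0.80, adjusted p = 0.0484), and with unscaled TPM the log2 change was -0.58. The difference between the genotypes was -0.66 (limma, SE 0.20, adjusted p = 0.143).

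Nfatc1 fell in cKO by 0.57 on the log2 scale (limma, SE 0.13, adjusted p = 0.00491), from 102.9 to 112.7 scaled TPM ex vivo to a range of 58.9 to 83.2 after stimulation. In WT the Nfatc1 libraries overlapped, and the log2 change was 0.11 (limma, SE 0.13, adjusted p = 0.550), with the sign turned at -0.15 when genes above 1 TPM were admitted. The difference between the genotypes was -0.67 (limma, SE 0.18, adjusted p = 0.109), and it was called with limma voom (adjusted p = 0.0441).

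Nfatc3 fell in cKO by 0.50 on the log2 scale (limma, SE 0.12, adjusted p = 0.00715), from 78.0 to 90.7 scaled TPM ex vivo to a range of 54.5 to 71.7. In WT it measured 0.06 on the log2 scale (limma, SE 0.12, adjusted p = 0.715), also with a turned sign of -0.19 when genes above 1 TPM were admitted. Stim1 fell in cKO by 0.45 (limma, SE 0.11, adjusted p = 0.00921), from 31.6 to 38.8 scaled TPM to a range of 23.7 to 28.7, while the WT change was -0.07 (limma, SE 0.11, adjusted p = 0.661). The calls of Nfatc1, Nfatc3 and Stim1 in cKO held in all 19 alternatives, while their size moved. The log2 changes were -0.89, -0.83 and -0.77 with unscaled TPM and -1.11, -1.04 and -0.98 with genes above 1 TPM admitted, and without cKO stimulated replicate 3 that of Nfatc1 was -0.37. The differences between the genotypes for Nfatc3 (-0.56, limma SE 0.17, adjusted p = 0.149) and Stim1 (-0.37, limma SE 0.16, adjusted p = 0.314) were not called.

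Across the 8 genes the difference in stimulation effect between genotypes was called in 0 by limma, against 1.1% of all genes (0.451% higher and 0.653% lower), with 5 at an unadjusted p under 0.05, against 14.5% of all genes, and in 2 by limma voom, against 2.97%. These comparisons share the ex vivo and stimulated libraries with those above and are not separate evidence.

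**Figure D3:**
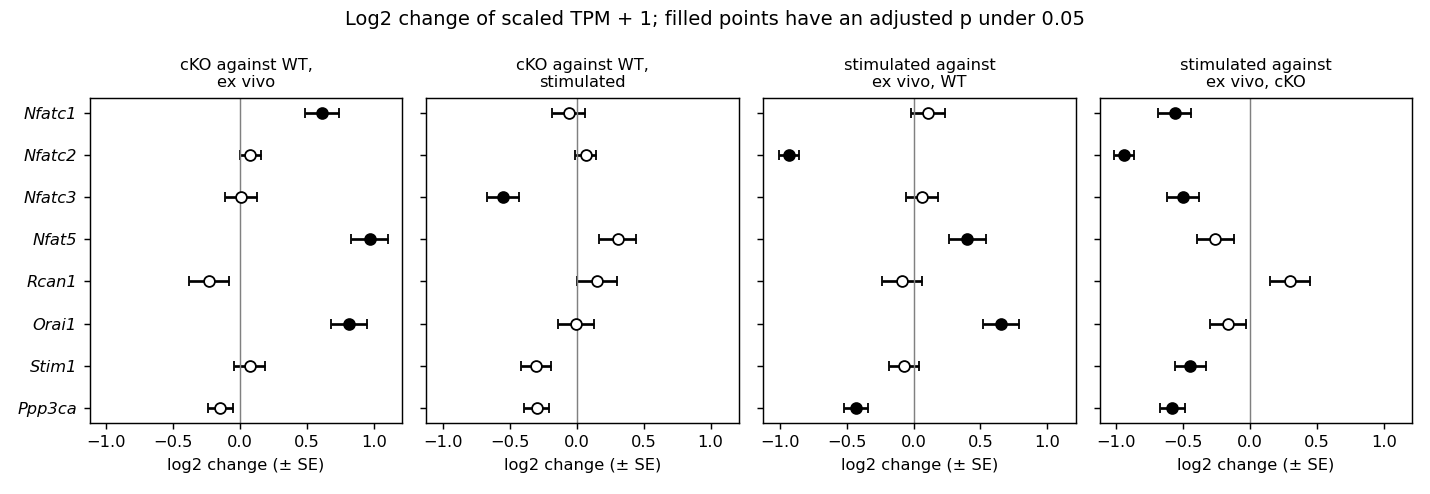
Log2 change (x axes) of each of the 8 genes (y axis) between cKO and WT and between stimulated and ex vivo Treg, on log2(scaled TPM + 1), with error bars of 1 SE. Filled points have a limma adjusted p under 0.05. Nfat5, Orai1 and Nfatc1 are filled to the right ex vivo, Nfatc3 is filled to the left after stimulation, and Nfatc2 lies between -0.93 and -0.94 in both genotypes.

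Rcan1, a gene whose short form is a known calcineurin target in many cells, was the least abundant member and was called in 0 of the 5 comparisons by limma. With stimulation its log2 change was -0.09 (limma, SE 0.15, adjusted p = 0.695) in WT and 0.30 (limma, SE 0.15, adjusted p = 0.130) in cKO. It had 97 to 197 reads per library. The group means were 5.61 to 8.62 times the median level of 1555 olfactory and vomeronasal receptor genes, which T cells do not use. Without cKO ex vivo replicate 2 its change in cKO was called (0.42, adjusted p = 0.0482), and with genes above 1 TPM admitted it had the opposite sign.

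Across the 12 libraries, pairs of members differed in how closely they moved together on log2(scaled TPM + 1). Nfatc3 with Stim1 had a Pearson r of 0.91, Nfat5 with Orai1 0.85 and Nfatc2 with Ppp3ca 0.85, whereas Nfatc2 with Nfat5 had 0.01. Orai1 with Ppp3ca had -0.44, and Rcan1 had a negative r with every other member, from -0.31 with Ppp3ca to -0.72 with Nfatc1. Among all genes tested, those most like Nfatc2 were Itpr2 (r = 0.995), Sik1 (0.995) and Dtx1 (0.994). Those most like Orai1 were Tnfsf8 (0.971), Mapkapk2 (0.959) and Ndufb7 (0.942), and those most like Nfat5 were Map3k5 (0.946), Slc36a4 (0.919) and Arhgef12 (0.919). Nfatc1 had Atxn1 (0.941) and Tiam1 (0.927) among the 3 most like it, Nfatc3 was most like Stag2 (0.977), Lfng (0.972) and Stk24 (0.969), Stim1 like Sec63 (0.969), Atg13 (0.962) and Mgea5 (0.956), Ppp3ca like Acap2 (0.986), Hmha1 (0.973) and Pgap1 (0.973), and Rcan1 like Gm14158 (0.944), Rps12-ps2 (0.909) and 7SK (0.892). These are descriptions over libraries that share 4 groups, so that any genes with like group means correlate.

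The other genes of the pathway were examined by role. Among 6 tested genes of store-operated calcium entry, 0 were called by genotype ex vivo with limma, against 5.29% of all genes, with 1 at an unadjusted p under 0.05, against 17.9%. Limma voom and median-of-ratios scaling each called 1, against 9.03% and 5.4%. Orai2, a channel subunit that pairs with Orai1, was the 1 of 6 called in stimulated Treg, against 6.93% of all genes, and was lower in cKO (-0.52, limma adjusted p = 0.012), a call kept in 14 of 19 alternatives and not made with unscaled TPM or from 1 TPM. Stimulation changed 4 of the 6 in each genotype, 1 higher and 3 lower, against 32% of all genes called in WT and 43.8% in cKO. Orai3, the remaining channel subunit, rose by 0.63 in WT and 0.53 in cKO on the log2 scale, calls kept in 14 and 12 of 19 alternatives, with a log2 change in cKO down to 0.03. Orai2 fell by 0.42 and 0.83, and Saraf, which slows the STIM and ORAI current and is listed as Tmem66, fell by 1.32 and 1.21. Stim2 was not called, at -0.15 and -0.21.

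Among 13 tested genes of calcium release and transport, Atp2b4, a pump that moves calcium out of the cell, was the one called ex vivo, against 5.29% of all genes. After stimulation 3 of the 13 were called between genotypes, against 6.93%. Atp2b4 averaged 13.2 ± 0.92 scaled TPM (SD, n = 3) in WT and 26.9 ± 2.85 in cKO ex vivo, and 41.2 ± 2.96 and 59.1 ± 8.13 after stimulation. Its log2 change between the genotypes was 0.97 ex vivo (limma adjusted p = 0.000931) and 0.51 after stimulation (limma adjusted p = 0.0231, kept in 11 of 19 alternatives). With stimulation Atp2b4 rose by 1.57 in WT and 1.11 in cKO, calls kept in 19 and 17 of 19 alternatives, with a log2 change in cKO down to 0.57. The potassium channels Kcna3 and Kcnn4, which keep the membrane polarised for calcium entry, were lower in stimulated cKO Treg, with log2 changes of -0.44 and -0.50 (limma adjusted p = 0.0164 and 0.0414). These calls were kept in 13 and 6 of 19 alternatives, and in the others the adjusted p reached 0.240 and 0.264.

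With stimulation 6 of these 13 genes were called in WT, 3 higher and 3 lower, and 9 in cKO, 2 higher and 7 lower, against 32% and 43.8% of all genes. Atp2a3, the calcium pump of the endoplasmic reticulum in blood cells, fell by 1.61 on the log2 scale in WT and 1.67 in cKO. Itpr2, an inositol trisphosphate receptor, fell by 1.31 and 1.34, and its mean went from 41.3 ± 5.57 to 16.0 ± 0.54 scaled TPM in WT, in the same direction as Nfatc2. Itpr3 fell by 0.77 and 0.80. Itpr1 rose by 0.44 in WT, a call kept in 16 of 19 alternatives with a log2 change down to 0.19, and was not called in cKO (0.17).

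Of 6 tested calcineurin subunits and calmodulins other than Ppp3ca, 0 were called by limma between genotypes in either state, against 5.29% of all genes ex vivo and 6.93% after stimulation. At an unadjusted p under 0.05 there were 0 and 1, against 17.9% and 23.8% of all genes, and limma voom called 0 and 1, against 9.03% and 9.36%. In WT, 2 fell with stimulation (Calm2 by 1.06 and Ppp3cc by 0.61 on the log2 scale), and in cKO 4 fell (among them Calm2 by 1.34, Ppp3r1 by 0.66 and Calm3 by 0.44), against 19.3% and 26.5% of all genes called lower. Ppp3cb, another catalytic subunit, was not called, at -0.11 in WT and -0.25 in cKO. Of 5 tested calcineurin inhibitors and binding proteins, 0 were called ex vivo by limma or limma voom, against 5.29% and 9.03% of all genes, with 1 at an unadjusted p under 0.05, against 17.9%. After stimulation 2 were lower in cKO Treg, against 3.63% of all genes, namely Carabin, listed as Tbc1d10c (-0.53, limma adjusted p = 0.00654), and Rcan3 (-0.33, limma adjusted p = 0.0325), whose calls were kept in 16 and 9 of 19 alternatives. With stimulation 4 of the 5 were called in each genotype, 1 higher and 3 lower, against 32% and 43.8% of all genes. Rcan3 rose by 0.52 in WT and 0.22 in cKO, calls kept in 17 and 3 of 19 alternatives, with the opposite sign in cKO, down to -0.29, in some of them. Ppia, the cyclophilin that binds ciclosporin, fell by 1.03 in WT and 1.00 in cKO, Carabin by 0.58 and 0.82 and Cabin1 by 0.39 and 0.40.

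Of 12 NFAT kinases and export genes, 0 were called by limma between genotypes in either state, against 5.29% and 6.93% of all genes. At an unadjusted p under 0.05 there were 2 ex vivo and 3 after stimulation, against 17.9% and 23.8% of all genes, and limma voom called 1 and 0, against 9.03% and 9.36%. With stimulation 4 were called in WT, 2 in each direction, against 32% of all genes, with log2 changes of 0.51 for Csnk1d, 0.49 for Csnk1e, -0.56 for Csnk1a1 and -0.41 for Mapk8. In cKO 1 was higher and 5 were lower, against 43.8% of all genes, among them Csnk1a1 at -0.85, Mapk8 at -0.83 and Gsk3b at -0.53. These counts of 4 in WT and 6 in cKO were 2 and 5 with unscaled TPM and 0 and 5 with genes above 1 TPM admitted. Of the remaining family members and cofactors 4 were tested. Nfatc4 entered the test only through stimulated cKO Treg, at 6.19 ± 2.26 scaled TPM (SD, n = 3) there against means of 2.21, 2.38 and 3.24 in WT ex vivo, cKO ex vivo and stimulated WT, so no test of its change is given. Among the other 3, Tnpo1 and Kpnb1, which carry proteins into the nucleus, were each called with stimulation in 1 genotype, against 32% of all genes called in WT and 43.8% in cKO. Tnpo1 was higher in WT (0.28), a call kept in 9 of 19 alternatives with a log2 change down to 0.03, and Kpnb1 was lower in cKO (-0.26, limma adjusted p = 0.026), a call kept in 13.

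A list of 18 genes known from other work to respond to NFAT was examined beside the factors, and 16 were tested. The cytokines Il2, Il3 and Csf2 entered the test only through stimulated cKO Treg, so they are given by value and left out of the counts over the other 13. Il3 averaged 21.7 ± 8.97 scaled TPM (SD, n = 3) in stimulated cKO against 2.24 ± 1.08 in stimulated WT, Il2 9.62 ± 2.88 against 1.49 ± 0.73 and Csf2 7.23 ± 1.71 against 1.84 ± 0.768. Ex vivo 4 of the 13 were called higher in cKO (Ifng, Irf4, Tnf and Pdcd1) and 1 lower (Nr4a1), against 5.29% of all genes. After stimulation 5 were called higher and 0 lower, against 6.93%. These counts of 5 and 5 fell to 3 and 4 with the replicate block, 3 and 1 with unscaled TPM and 0 and 1 with genes above 1 TPM admitted.

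Ifng, the effector cytokine, averaged 22.5 ± 4.31 scaled TPM (SD, n = 3) in WT and 71.2 ± 19.4 in cKO ex vivo, a log2 change of 1.60 (limma adjusted p = 0.00616), and its change after stimulation was 2.54. The Ifng calls were kept in 17 and 19 of 19 alternatives, those of Pdcd1 and Nr4a1 ex vivo in 11 and 10, and that of Irf4 after stimulation in 5. Several of these genes, such as Il2ra, Ctla4, Egr2, Egr3, Nr4a1 and Tnfrsf9, were also on the Treg identity or stimulation lists, and all respond to other factors besides NFAT.

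With stimulation 6 of the 13 rose and 4 fell in each genotype, against 32% of all genes called in WT and 43.8% in cKO. Pdcd1 rose by 3.17 in WT and 2.46 in cKO on the log2 scale, Tnfrsf9 by 1.85 and 2.26, and Egr3 by 1.70 and 1.41. The Egr3 call in cKO was kept in 17 of 19 alternatives, with a log2 change down to 0.88. Ctla4 fell by 1.85 and 1.38 and Ifng by 2.24 and 1.30. Nr4a1, an early gene of receptor signalling, fell by 0.55 in WT (limma adjusted p = 0.0307, kept in 10 of 19 alternatives), and Cd69, an activation marker on the list of stimulation controls, fell by 1.36 in WT and 1.71 in cKO.

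**Figure D4:**
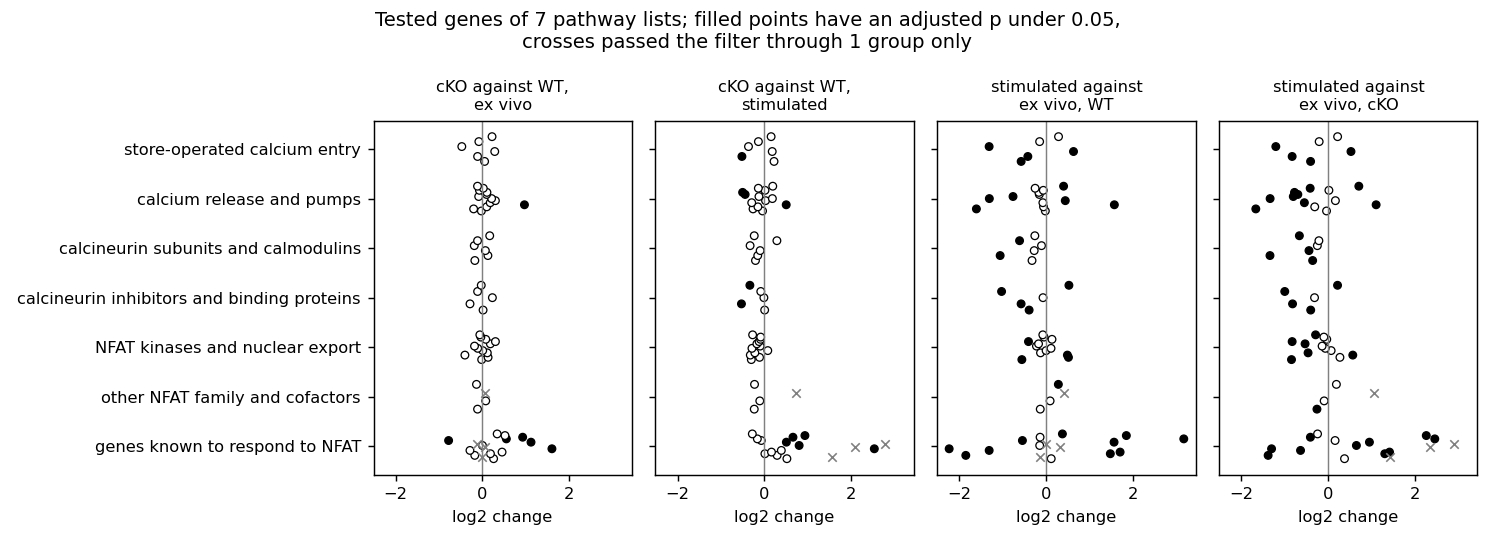
Log2 change (x axes) of each tested gene of 7 pathway lists (rows), in the 4 comparisons between genotypes and between stimulated and ex vivo Treg. Each point is a gene, filled points have a limma adjusted p under 0.05, and grey crosses are Nfatc4, Il2, Il3 and Csf2, which entered the test through stimulated cKO alone and are not counted. Among the other 13 genes known to respond to NFAT 5 are filled ex vivo and 5 after stimulation, beside 5.29% and 6.93% of all genes.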

How the data were processed

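The authors mapped paired reads of rRNA-depleted, stranded libraries to mm9 with STAR 2.6.0c, counted them by strand with HTSeq 0.6.1 on Ensembl genes, and deposited TPM (a signal per gene and library) with log2 values of TPM plus the worth of 1 read. From this offset the read counts were recovered, and 99.9977% of 434664 values were whole within 0.01 reads. The deposited table of the authors' own comparisons holds fold changes and p-values between groups and was not used. All 36222 genes were read. TPM were divided by trimmed-mean (TMM) factors, with trims of 30% and 5%, computed on the 13318 genes with a group mean of at least 5 TPM. limma 3.58.1 (R 4.3.3, trended variance) was fitted to log2(scaled TPM + 1) of all 12 libraries by group, two-sided, with Benjamini-Hochberg adjustment over all 13318 genes. Fold changes on this scale understate changes of genes of low level. The steps were tested on simulated data for biased fold changes, uncalibrated p and false calls. No pass mark was set for the share of changed genes that was recovered. Alternatives were genes from 1 TPM or no filter, a pseudocount of 0.1, unscaled TPM, median-of-ratios scaling, a replicate block, limma voom on recovered reads, and leaving out each library, 19 in all. All 8 genes are named, with the called genes of the pathway lists, at most the 4 of largest change per list and comparison, and examples that were not called. The uncalled examples were picked after their values were seen. The members and lists were chosen with earlier results of these data known. RefSeq promoters were found for 6 of the 8 genes. A few genes of these lists are not reported here.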

Additional observations from a re-analysis of the deposited data

Results flagged for a closer look

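Nfat5 was marked because its libraries moved in opposite directions with stimulation in the 2 genotypes. Every stimulated WT library lay above every WT library ex vivo, and every stimulated cKO library lay below every cKO library ex vivo. Such groups were apart, in one direction or the other, in 47.5% of all genes in WT and 53.5% in cKO. The share of genes apart in opposite directions was not counted. The difference between the stimulation effects was -0.66 on the log2 scale (SE 0.20, limma adjusted p = 0.143), so it did not pass the test, and it ranged from -1.18 to -0.49 over the 19 alternatives, with adjusted p from 0.0578 to 0.671.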

How the results depend on the processing

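Counts of called genes depended on the genes admitted and on the scaling, and the cause was not tested. Between genotypes ex vivo 704 genes were called, against 57 from 1 TPM, 56 with no filter, 273 with unscaled TPM, 1203 with limma voom and 331 to 740 without 1 library, and of the 8 genes 3 were called, against 0 from 1 TPM, 0 with no filter, 2 with unscaled TPM and 2 to 3 without 1 library. After stimulation 923 genes were called, against 68, 68 and 306 in the first 3 settings and 424 to 990 without 1 library, and 1 of the 8, against 0, 0 and 0, 0 with the block and 0 to 1 without 1 library. With stimulation in WT 4262 genes were called, against 1838, 1694 and 1943 and 3234 to 4383 without 1 library, and 4 of the 8, against 1, 1 and 2 and 3 to 4 without 1 library. With stimulation in cKO 5835 were called, with 4131 to 5956 without 1 library, and 5 to 6 of the 8. For the difference between the genotypes 147 were called, against 0, 0, 67, 65 with the block, 395 with limma voom and 56 to 208 without 1 library, and of the 8 genes 0, against 2 with limma voom and 0 without 1 library.

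Unscaled TPM moved the median of all genes by 0.22, -0.26, 0.18, -0.30 and -0.48 on the log2 scale in these 5 comparisons. The share of calls that were higher went from 68.5% to 95.2% ex vivo, from 47.6% to 22.5% after stimulation, from 39.6% to 60.5% in WT and from 39.5% to 11.9% in cKO; with genes from 1 TPM the WT and cKO shares were 16.5% and 12.8%. Of the members' 91 called values in the 7 settings that kept all libraries, 71 kept their call and 20 lost it, and 3 of 189 uncalled values gained one. In the fits without 1 library 140 of 156 kept it and 16 lost it, and 1 of 324 gained one, and no called value turned its sign.

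The correlation of same-numbered libraries, on deviations from the group means, ranged from -0.21 to 0.26 and exceeded 0.1 in 2 of 18. With 3 libraries per group this cannot settle whether ex vivo and stimulated libraries came from the same mice. With the replicate block, 516, 630, 3945 and 5457 genes were called in the first 4 comparisons, and of the 8 genes Nfatc3 after stimulation (adjusted p = 0.0512) and Nfat5 in WT (0.0599) were not called. Of 13 NFAT-responsive genes the setting from 1 TPM left 0 called ex vivo against 5, and 1 after stimulation against 5. Rcan1 had the fewest reads of the 8 genes, 97 in its lowest library. With 3 libraries per group, a p that misses the threshold does not show that values were alike.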
